A study of Mus musculus with 2 samples.

Results

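The genes described here are 10 immediate early genes of mouse liver: Fos, Jun, Junb, Jund, Atf3, Egr1, Myc, Ier2, Ier3 and Dusp1. They were chosen by name, and each probe set whose annotated symbol was a single member was read, which gave 11 probe sets for the 10 genes out of 12393 genes on the array. Jun had 2 probe sets and each of the other 9 genes had 1. RNA came from livers of female mice, labelled as homozygous for a knockout of apolipoprotein E on a C57BL/6J background and 2 months old per the design text. For 4 weeks the mice ate chow with 10% (w/w) olive oil to which maslinic acid, a plant triterpene found in olive skins, had been added, or the same chow with 10% (w/w) plain olive oil. The labels give the same knockout for both diets, and no wild-type or unsupplemented group was analysed here. The design counts 6 mice per diet and 12 in all, but there is 1 array per diet, and the sources used here do not say whether its RNA was pooled. The arrays are called the maslinic acid array and the olive oil array after their labels. Every difference below lies between these 2 arrays, has no replicate check and could not be tested.

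Immediate early genes are switched on within minutes of a growth factor, cytokine or stress signal, without new protein synthesis, because kinases activate transcription factors that already sit on their promoters. Fos and Jun family proteins pair through leucine zippers to form the factor AP-1, while Egr1, Atf3 and Myc act mainly at other DNA elements. Dusp1 removes the activating phosphates from MAP kinases and so closes the loop that switched these genes on. In liver these transcripts are known to surge after partial hepatectomy and during tissue handling, and most are short-lived.

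The member with the largest difference among those measured was Dusp1, which was 1.503-fold lower on the maslinic acid array. Egr1 was 1.35-fold and Fos 1.29-fold higher on that array, while Ier2 and Jund lay within 1.07-fold. The 2 probe sets of Jun pointed in opposite directions. Junb, Atf3, Ier3 and Myc were too dim to count as measured. To count, a gene had to reach a deposited signal of 80 or more on either array, and signals under a floor of 40 were set to it before a ratio was taken. Of the 10 members 6 were measured, and 1 of these, Dusp1, was at least 1.5-fold apart. Over all 5911 measured genes 3.05% were at least 1.5-fold apart and 1.57% were at least 1.5-fold lower on the maslinic acid array. None of the 6 measured members reached 2-fold, a size met by 0.609% of all measured genes.

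**Figure D1:**
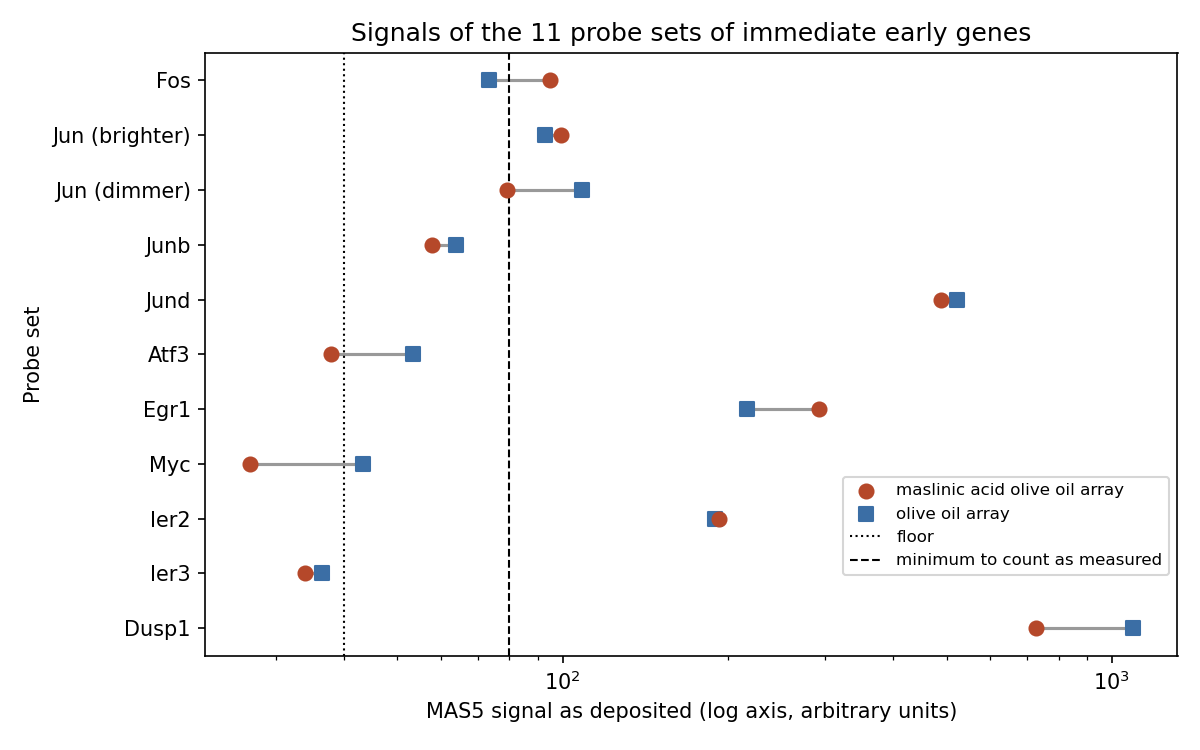
Deposited MAS5 signal (log axis, arbitrary units) of each of the 11 probe sets on the maslinic acid array (circles) and the olive oil array (squares), with the floor at 40 and the minimum at 80 as vertical lines. Dusp1 reads 727.7 against 1094.1, Egr1 292.7 against 216.5, Ier3 lies under the floor on both arrays, and Myc and Atf3 lie under it on the maslinic acid array. Positions along the axis do not compare 1 gene with another, because probe sets differ in brightness.

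The arrays were close over most genes, but not at the targeted gene. Signals are MAS5 intensities, a summary of matched and mismatched probes on a linear scale, and their 2% trimmed mean was 200.1 on each array. Apoe itself read 7630 on the maslinic acid array and 407.7 on the olive oil array, 18.7-fold apart, although both are labelled as knockouts. The position of its probes relative to the disrupted part is not known here, so the label of each array is in doubt and directions below are those of the arrays as labelled. With 1 array per diet, no result could be recomputed without either array. The control probe sets of actin had log2 ratios of -0.51 at the 5′ end (2200 on the maslinic acid array and 3126.6 on the olive oil array), -0.40 in the middle and -0.25 at the 3′ end, and those of Gapdh had 0.08, 0.04 and 0.05. The 5′ actin value is close in size to the Dusp1 ratio given above, and its part in that ratio was not tested. The log2 signals of the measured genes correlated with r = 0.987, which is across genes and not across replicates.

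Promoter sequences were read for the members from a supplied set of RefSeq promoters (build GRCm38.p6), in which 7 of the 10 had an entry. The entries of Dusp1 and Fos are shown because Dusp1 had the lowest log2 ratio of the measured members and Fos the highest among those with an entry. Each runs 5′ to 3′ along the gene's own strand over the 250 bases before the annotated start, at chr17:26508473-26508722 on the minus strand for Dusp1 and at chr12:85473640-85473889 on the plus strand for Fos. Capitals mark the cAMP response element core TGACG on either strand, the full element TGACGTCA that contains it, and the TATA box TATAAA on the gene's strand.
Dusp1: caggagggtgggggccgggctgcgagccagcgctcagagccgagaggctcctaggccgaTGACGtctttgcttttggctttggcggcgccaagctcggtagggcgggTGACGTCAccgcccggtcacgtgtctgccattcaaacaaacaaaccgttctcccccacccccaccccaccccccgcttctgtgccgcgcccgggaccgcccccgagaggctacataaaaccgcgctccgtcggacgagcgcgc
Fos: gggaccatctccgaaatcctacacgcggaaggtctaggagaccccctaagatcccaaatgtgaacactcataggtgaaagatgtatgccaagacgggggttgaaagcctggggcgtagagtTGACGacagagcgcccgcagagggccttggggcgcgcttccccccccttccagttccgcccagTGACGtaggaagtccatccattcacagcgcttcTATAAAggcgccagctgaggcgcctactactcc

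The cAMP response element is bound by CREB and ATF proteins, which phosphorylation by signal-dependent kinases activates. The Dusp1 window held the full palindrome TGACGTCA, starting 143 bases before the start, and a further core 191 bases before it. The 2 cores inside the palindrome overlap, since it reads the same on both strands. The Fos window held cores 129 and 66 bases before the start and a TATA box 33 bases before it. Among the other 5 members with an entry, Junb and Atf3 held the core and Jun, Jund and Ier3 did not. The full element was found in 1.55% of 32841 mouse promoter windows of this length and the core in 17.8%, so the core is common by its letters alone. All motifs except the TATA box were searched on both strands. The GC box GGGCGG was found in 5 of the 7 members, against 32.7% of all windows. Those 5 windows held 54.4% to 68.4% G and C, Junb 66.4% and Jund 47.6%, against a median of 52.4% over all windows. The part of base content in this share was not tested. CCAAT was found in 3 of the 7 and in 33.9% of all windows, while the E-box CACGTG was found in Dusp1 and in 6.02%. The TATA box as spelled was found in Fos and in 7.59%. The AP-1 site TGANTCA and the CArG box, the site of serum response factor, were in none of the 7 windows, against 6.75% and 1.47% of all windows. Bases further upstream were not searched, nor were Egr1, Ier2 and Myc, so sites there would be missed. These matches are letters in a window and show nothing of binding in these livers.

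**Figure D2:**
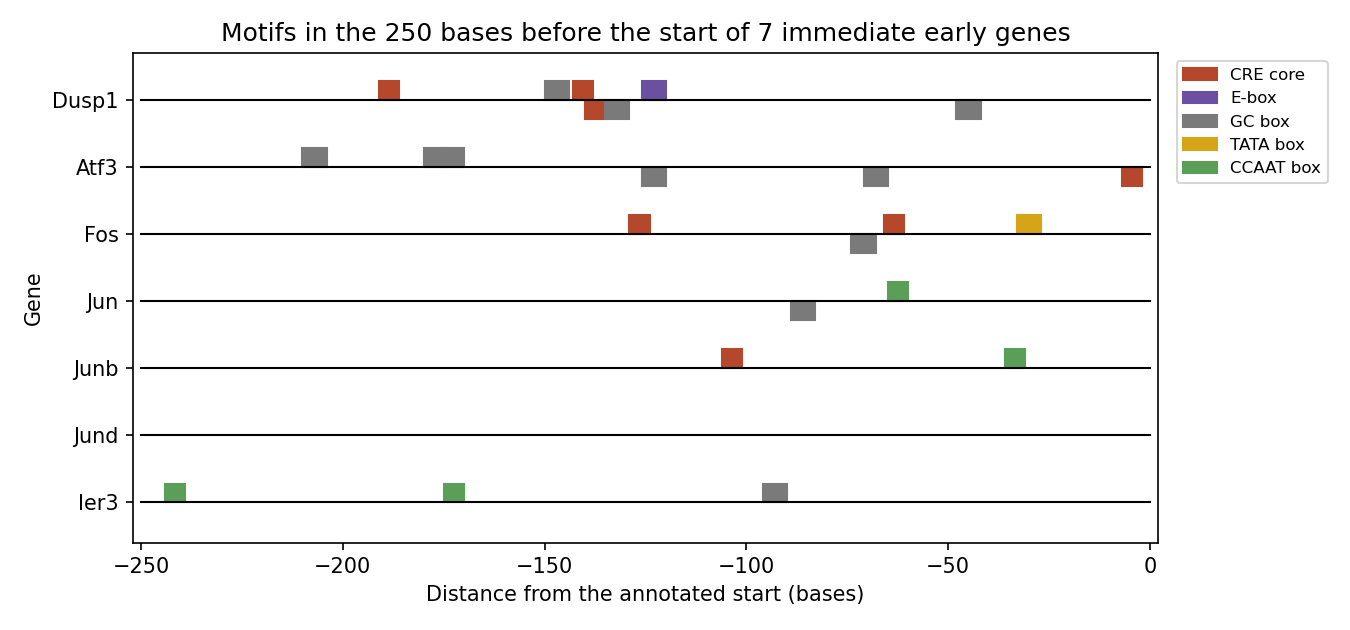
Positions of 5 motifs in the 250 bases before the annotated start of the 7 members with an entry in the promoter set used, as distance from the start in bases. Blocks above a line are on the gene's strand and blocks below it on the opposite strand. Dusp1 carries cores at 191 and 143 bases, Fos at 129 and 66 bases, and no block is drawn for Jund.

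Dusp1 encodes the nuclear dual-specificity phosphatase that inactivates p38, JNK and ERK kinases, and glucocorticoids also induce it. Its only probe set read 727.7 on the maslinic acid array and 1094.1 on the olive oil array, a log2 ratio of -0.59. The difference lay just past the 1.5-fold line. Low signals vary more on such arrays, so the member was set beside genes of its own brightness. Among the 1413 genes with a mean signal of at least 640, the 5th and 95th percentiles of the log2 ratio were -0.26 and 0.23, 1.13% were at least 1.5-fold apart, and 7 genes (0.495%), Dusp1 among them, were lower by that much. Dusp1 was thus outside the range that held most genes of its brightness, on a single probe set.

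Egr1 encodes a zinc finger factor induced by growth factors, injury and fasting or feeding signals. Its probe set read 292.7 on the maslinic acid array and 216.5 on the olive oil array, a log2 ratio of 0.44. Genes with a mean signal of 160 to 320 had 5th and 95th percentiles of -0.34 and 0.34, so Egr1 lay above that range while staying under 1.5-fold. In that band 2.13% of 1548 genes were at least 1.5-fold apart.

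Fos encodes the AP-1 subunit that cannot bind DNA without a Jun partner. It read 94.7 on the maslinic acid array and 73.5 on the olive oil array, a log2 ratio of 0.37. The lower of these signals is under the minimum of 80, so Fos counted as measured through the array where it was higher. In the band from 80 to 160 the 5th and 95th percentiles were -0.45 and 0.44 and 4.61% of 1735 genes were at least 1.5-fold apart. The Fos ratio lay inside that range.

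Jun encodes the main partner of Fos and is needed for hepatocyte proliferation in regenerating mouse liver. The slightly brighter of its probe sets, which stands for the gene, read 99.4 on the maslinic acid array and 92.7 on the olive oil array, a log2 ratio of 0.10. The dimmer read 79.2 on the maslinic acid array and 108.4 on the olive oil array, a log2 ratio of -0.45. The probe sets read the same RNA on the same arrays, so the direction of Jun depends on which is used, and their mean log2 ratio was -0.18. They lay 0.55 apart, whereas the median gap was 0.18 over the 1258 genes with exactly 2 measured probe sets, and 8.11% of those genes had a gap at least as wide. The choice between them was close, with mean signals of 96.1 and 93.8.

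Jund and Junb complete the Jun family. Jund, which unlike its relatives is present in resting cells and is little induced, read 488.9 on the maslinic acid array and 522.4 on the olive oil array, a log2 ratio of -0.10. Junb, an inducible member that can oppose Jun at shared targets, read 57.7 and 63.9 on these arrays. Junb lay above the floor on both arrays but under the minimum, with a log2 ratio of -0.15. Jund lay inside the 5th to 95th percentile range of -0.27 to 0.29 of the 1051 genes with a mean signal of 320 to 640, of which 2% were at least 1.5-fold apart. Junb is too dim for such a range.

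Atf3 encodes a stress-induced repressor of the ATF/CREB family. It read 37.9 on the maslinic acid array, under the floor, and 53.4 on the olive oil array, at least 1.33-fold lower. Myc, a basic helix-loop-helix factor that drives growth and ribosome genes with its partner Max, read 26.9 and 43.2 on these arrays, at least 1.08-fold lower. As plain ratios of the deposited signals the differences were 1.41-fold for Atf3 and 1.61-fold for Myc, but a ratio at such signals cannot be read as a size. Neither gene counted as measured.

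Ier2 and Ier3 encode proteins of the immediate early response, and Ier3 is a target of NF-kappaB that affects cell survival. Ier2 read 192.3 on the maslinic acid array and 189.2 on the olive oil array, a log2 ratio of 0.02 and the smallest absolute value of the 6 measured members. Ier3 read 33.9 and 36.4, under the floor on both arrays, so no fold is given for it.

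Over the 6 measured members, 4 were higher and 2 lower on the maslinic acid array, with log2 ratios from -0.59 to 0.44 and a median of 0.06. Over all measured genes the median was -0.01, with 48% higher and 52% lower. The absolute log2 ratio had a median of 0.23 over the members and 0.12 over all measured genes. Of the 6, Dusp1 and Egr1 lay outside the 5th to 95th percentile of genes of like brightness and the other 4 lay inside. The members did not share a direction.

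**Figure D3:**
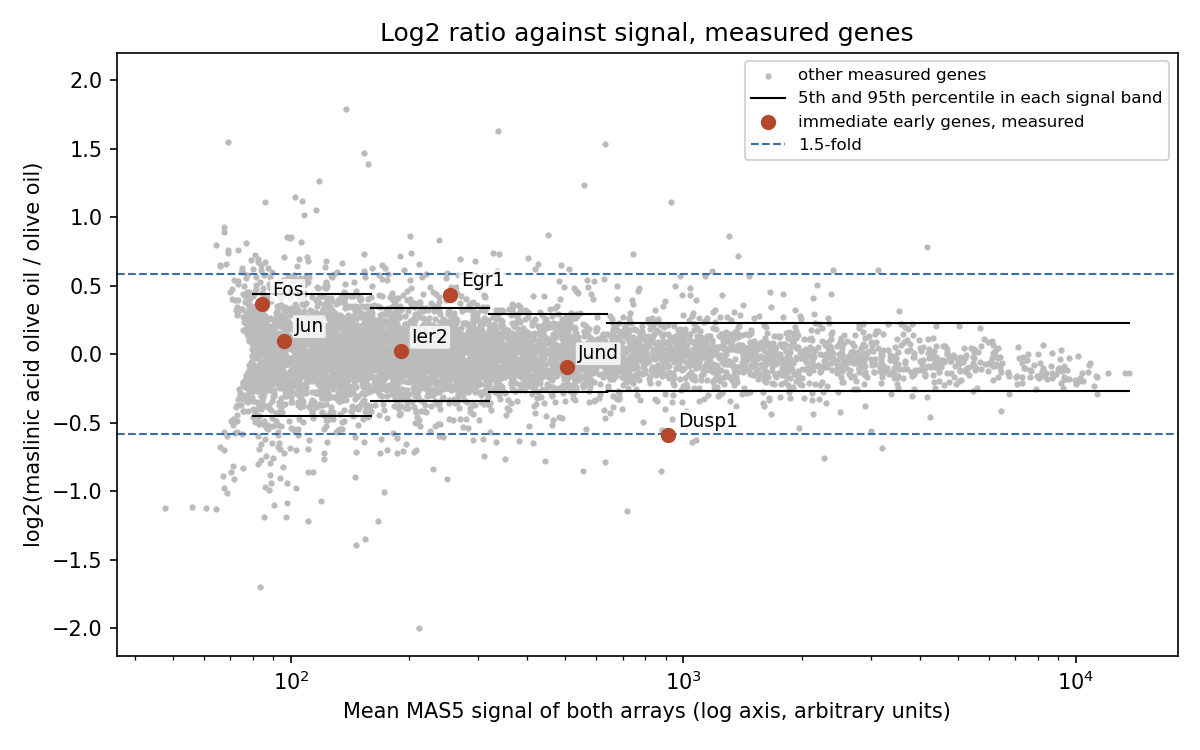
Log2 ratio of the maslinic acid array over the olive oil array against mean signal (log axis) for all measured genes (grey), with the 6 measured members named. Dashed lines mark 1.5-fold and black lines the 5th and 95th percentile in each signal band. Dusp1 at -0.59 lies below its band and Egr1 at 0.44 above its own, and 4 genes lie beyond the vertical axis.

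Related genes were then read from 10 lists named by function, with the members left out. The remaining AP-1 and related leucine zipper genes were little different, with 2 higher and 2 lower of the 4 measured out of 13 on the array, and a median log2 ratio of 0.01. The small Maf gene Mafg lay at 0.09 (0.29 on a further probe set) and the repressor Bach1 at 0.07. Nfe2l1 lay at -0.06 and Nfe2l2, the main antioxidant regulator, at -0.07. The Fos relatives Fosb, Fosl1 and Fosl2 were not measured. Of 8 measured ATF and CREB genes out of 11 on the array, 2 were higher and 6 lower, with a median of -0.14. Atf4, the effector of the integrated stress response, was higher at 0.20 on each of its 2 probe sets. Atf5 lay at -0.29, Ddit3, which encodes CHOP, at -0.22 and Crem at -0.17 (-0.34 on a further probe set). No gene of either list was 1.5-fold apart.

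Other immediate early transcription factors were mostly lower on the maslinic acid array, with 7 lower and 2 higher of 9 measured. Over all measured genes 52% were lower. The median of these factors was -0.17 and none was at least 1.5-fold apart. The C/EBP factors of the acute phase response were both lower. Cebpb read 998.3 on the maslinic acid array and 1254.2 on the olive oil array, -0.33 on the log2 scale and -0.23 on its further probe set, and Cebpd lay at -0.38. Klf2, an endothelial and lymphocyte factor, lay at -0.32. Ier5 went the other way with 103.4 on the maslinic acid array and 72.4 on the olive oil array, 0.51 on the log2 scale, and passed the minimum only on the maslinic acid array. Egr2, Egr3 and Egr4, the relatives of Egr1, and the orphan receptors Nr4a1, Nr4a2 and Nr4a3 were not measured. Egr1 was thus the only EGR gene measured on these arrays.

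The list of other rapidly induced effector genes had 15 lower and 8 higher of 23 measured, out of 29 on the array, with a median of -0.11. Of these, 2 were at least 1.5-fold lower and none as much higher, against 1.57% and 1.47% of all measured genes. They were the growth arrest and stress genes Gadd45g, with 66.3 on the maslinic acid array and 154.1 on the olive oil array, and Gadd45b, with 59.0 and 117.0. Both Gadd45 genes reached the minimum of 80 only on the olive oil array, where they were higher, so the count is a description and not support for a direction. Ccn1, a secreted matrix protein gene, lay at -0.57 and the kinase gene Sgk1 at -0.54. Sgk1 was read by a single measured probe set. It is also in the list of glucocorticoid-induced liver genes below, which had 6 higher and 8 lower.

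Among the other dual-specificity phosphatases 7 of 17 on the array were measured, with 5 higher, 2 lower and a median of 0.03. Dusp6, which acts on ERK in the cytoplasm, was the lowest. It read 507.1 on the maslinic acid array and 644.9 on the olive oil array, a log2 ratio of -0.35. Dusp3 lay at -0.13, Dusp11 at 0.16 and Dusp22 at 0.23. None of these phosphatases was 1.5-fold apart, a line that Dusp1 itself only just passed. Dusp6 also lay below the 5th percentile of -0.27 for genes with a mean signal of 320 to 640. The MAP kinase route to immediate early genes had 8 higher and 7 lower of 15 measured genes, with a median of 0.01. Rps6ka3, which encodes an ERK-activated kinase, lay at -0.45, the JNK activator gene Map2k4 at 0.33, Nras at -0.23 and the p38 gene Mapk14 at 0.17.

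No measured gene of the lists linked to Myc was at least 1.5-fold apart. Partners and antagonists of Myc had 2 higher and 3 lower of 5 measured, with a median of -0.01. Among them were Mxi1 at 0.22, Mlx at -0.09 (0.02 on a further probe set), Mga at -0.08 and Mlxipl at 0.05. Max and Mycn were not measured. MYC target genes had 5 higher and 11 lower of 16 measured, a median of -0.07 and none at least 1.5-fold apart. The nucleolin gene Ncl lay at -0.41 (-0.09 on a further probe set), the transferrin receptor gene Tfrc at -0.42 and Bop1 at 0.30. Odc1, the first enzyme of polyamine synthesis, lay at 0.48 on the probe set used, and from -0.16 to 0.60 over all 3.

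AP-1 target genes were lower in 5 of 6 measured cases, out of 13 on the array, with a median of -0.30. Over all measured genes 52% were lower, and with no minimum the median of this list was 0. Hmox1, the inducible haem oxygenase gene, read 37.2 on the maslinic acid array and 129.9 on the olive oil array, at least 3.25-fold lower, and passed the minimum only on the olive oil array. It was the only gene of this list at least 1.5-fold apart, a size met by 3.05% of all measured genes. Cd44 lay at -0.36, the cyclin gene Ccnd1 at -0.32 with all 3 probe sets at -0.32 or lower, and Vegfa at -0.28. Most of these genes also answer to other factors, and 7 of the 13 were not measured.

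Glucocorticoids induce Dusp1, and a list of other glucocorticoid-induced liver genes was split in direction. All 14 were measured, with 6 higher, 8 lower and a median of -0.05. Mt2, a metallothionein gene, read 1270.6 on the maslinic acid array and 588.9 on the olive oil array, a log2 ratio of 1.11. Zbtb16, which passed the minimum only on the maslinic acid array, lay at 0.76 and Lcn2 at 0.66, and these 3 were at least 1.5-fold higher. Igfbp1, a binding protein of insulin-like growth factors that insulin represses, was the only gene at least 1.5-fold lower, with 2461.1 and 3952.9 on these arrays and a log2 ratio of -0.68. Over the 10 lists together, 7 of 106 distinct measured genes (6.60%) were at least 1.5-fold apart, 3 higher and 4 lower, against 3.05% of all measured genes. The lists were chosen with earlier results of these arrays known, so nothing is read from that share.

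**Figure D4:**
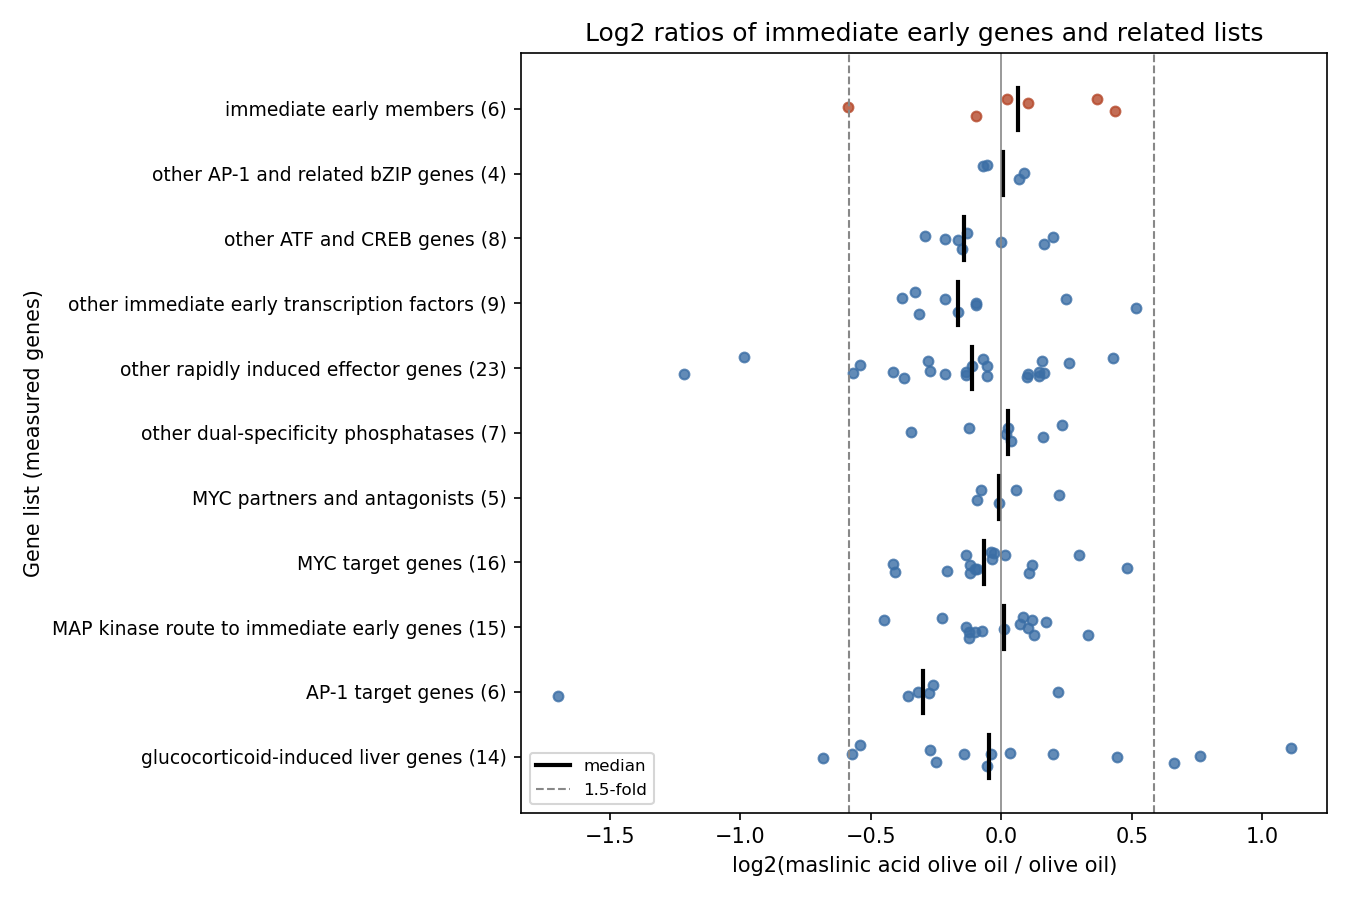
Log2 ratio of the maslinic acid array over the olive oil array for the measured immediate early members (top row) and the measured genes of 10 related lists, each point a gene and each black bar the median. Numbers in brackets count measured genes, and dashed lines mark 1.5-fold. The members spread from -0.59 to 0.44 around a median of 0.06, and the AP-1 targets have the lowest median at -0.30.

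Cell type markers were read beside these values, because immediate early genes can be induced in most cell types. In bulk liver RNA, fewer cells of a type and less RNA per cell cannot be told apart. Liver identity was plain, with Apoa1 at 13029.6 on the maslinic acid array and 14330.1 on the olive oil array, and Cyp2e1 at 10158.4 and 12414.4. Of the hepatocyte markers, all 10 measured were lower on the maslinic acid array, with a median log2 ratio of -0.18 and summed signals of 79098.3 against 89906.8. That median was -0.07 with quantile normalization and -0.09 with the loess trend on signal removed, and the 3 probe sets of Hnf4a ranged from -0.22 to 0.64. The 50 brightest genes had a median of -0.14, and these markers are bright. All 7 measured endothelial markers of 8 on the array were also lower, with a median of -0.12 and sums of 2552.1 against 2806.3. Their brightest were Clec4g at -0.08 and Stab2 at -0.17, and Pecam1 was not measured. The 2 probe sets of Eng, an endothelial marker, lay at -0.05 and 0.01. Over all measured genes 52% were lower.

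The remaining cell types were mixed. Macrophage and Kupffer cell markers had 6 higher and 5 lower of 11 measured, with a median of 0.03. Their sums were 12056.8 on the maslinic acid array against 12098.4 on the olive oil array. Among them Cd5l lay at -0.20 and Csf1r at 0.03, with the 3 probe sets of Csf1r from -0.16 to 0.20. The scavenger receptor gene Marco of that list read 84.6 on the maslinic acid array and 338.1 on the olive oil array, a log2 ratio of -2.00 and the lowest of all 5911 measured genes; it is named after its value was seen, and it was the only marker of the list at least 1.5-fold apart. Stellate cell and matrix markers had 5 higher and 2 lower of 7, a median of 0.21 and sums of 4077.9 against 4050, with Vim at 0.27 and Dcn at -0.19. Of 9 lymphocyte markers on the array 2 were measured, Ighm at 1.54 and Ptprc at -0.14, with sums of 1269.6 against 689.9. The 3 measured probe sets of Ighm ranged from 0.49 to 1.54, and the sums use only the brightest of them. The T cell genes Cd3e, Cd4 and Cd8a and the B cell genes Cd79a, Cd79b and Ms4a1 were not measured. Of 6 neutrophil markers only S100a8 was measured, at 135.7 against 84.8, and of 4 cholangiocyte markers none was. No marker was listed at 0. The part of these shifts in the values of the immediate early genes was not tested.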

How the data were processed

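Per the labels' protocols, biotinylated cRNA from total liver RNA was hybridised to 1-colour oligonucleotide arrays, 1 per diet. The intensities deposited by the authors are MAS5 signals, per the submitters' processing notes, of a version the sources used here do not give. Each array held 22690 probe sets, of which 20393 named 1 gene by the platform annotation and 20364 had an Entrez number found in the GRCm38.p6 gene table. That table served for names only. Each array was multiplied to reach a 2% trimmed mean of 500, signals under 100 were set to 100, and a gene counted as measured where its probe set with the highest mean signal reached 200 on at least 1 array. Printed signals are on the deposited scale. The number of arrays limits the precision. Repeat probe sets of a gene gave an SD of 0.23 in log2 ratio, which is taken within the same arrays and covers no difference between animals.

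The members and lists were chosen with earlier results of these data known. Named genes are all members, for each list up to 4 measured genes furthest from a log2 ratio of 0, the 2 brightest markers per cell type, and Apoe; other names were chosen after values were seen. No probe set named Gapdh alone. With 1 array per group no test was run. Python 3.11.15 with numpy 2.4.6, pandas 2.3.3 and statsmodels 0.14.6 was used, and the steps were tested on simulated data.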

Additional observations from a re-analysis of the deposited data

How the results depend on the processing

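Alternatives covered scaling (as deposited, equal medians, quantile, loess trend removed), the floor (50 or 200), the minimum (none, 400, or 200 on the mean), the mean of all probe sets, and dropping those whose names end in _x_at or _s_at. Ratios without floor or minimum were added after seeing the data. With 1 array per diet no array could be left out. No paired analysis was possible because there is a single array per diet.

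Dusp1 stayed at least 1.5-fold lower in all 12 settings run on it, from -0.60 to -0.59, and Egr1 stayed between 0.43 and 0.44. Only equal medians, quantile and loess scaling could change these values. The floors, minimums and probe set choices did not touch either gene, so they are no check on it. Fos came to 0.24 with a floor of 200 and was not measured under a minimum of 400, nor was Jun. Jun turned to -0.18 with the mean of its probe sets. The median over measured members ran from -0.05 to 0.06 and changed sign in 3 of 11 settings. Of 70 member values 69 moved by less than the SD of 0.23 between probe sets of a gene, the exception being that value of Jun. Many of the 69 could not move, because the setting did not touch the gene. List medians are mostly smaller than that SD, so it does not show that they held. With no minimum, where genes at the floor on both arrays enter, the median was 0 for AP-1 targets and for other immediate early transcription factors, -0.0024 for ATF and CREB genes and -0.05 for effector genes. A minimum of 400 gave -0.10 for the transcription factors, -0.07 for effectors and 0.09 for the MAP kinase route. The glucocorticoid median ran from -0.14 to -0.0026 and that of hepatocyte markers came to -0.07 with quantile normalization. Among all measured genes 87 lay at least 1.5-fold up and 93 down on the maslinic acid array. A minimum of 400, which tests fewer genes, gave 45 and 40, and a floor of 200 gave 59 lower. Low signal limits Junb, Atf3, Myc and Ier3, which gave no measured ratio.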

Other observations

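Besides Dusp1, 6 genes with a mean signal of at least 640 were at least 1.5-fold lower on the maslinic acid array; they are named after their values were seen. Of these, 2 encode binding proteins of insulin-like growth factors, Igfbp1 and Igfbp2. Igfbp2 read 1691.9 on the maslinic acid array and 2857.9 on the olive oil array, a log2 ratio of -0.76. Sdc4, which encodes the cell surface proteoglycan syndecan 4, lay at -0.64 and Uroc1, which encodes urocanase of histidine breakdown, at -0.62. The others were Dynll2 at -1.15 and Evi5 at -0.85.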
